A study of Mus with 4 samples.

Results

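The genes described here are 47 genes of the mammalian cell cycle, chosen by name for their known role in the cycle. No measured value entered the rule, although earlier results of these data were known when the list was made. The deposited annotation gave them 87 of the 56605 probes of the array, and all 47 could be tested, among 16318 genes tested in all. They were sorted by textbook role into 4 classes. These were 11 G1 cyclins, kinases and E2F factors, 6 inhibitors, 12 S phase genes and 18 mitotic genes.

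Total RNA was taken from an immortalized murine podocyte cell line, 2 samples with a lentivirus for the active, N-terminal form of OASIS (Creb3l1), a transcription factor of the CREB/ATF family, and 2 samples with a control lentivirus for the fluorescent protein Venus. All 4 samples had been kept for 10 to 14 days at 37 °C with interferon-γ left out, which is the condition under which the line differentiates, and had then been given vector for 24 h with polybrene and 10% FBS at 200 to 500 infectious units per cell. RNA was taken 48 h after the vector was added, and the samples were read on 4 arrays (Agilent, 1 colour) of 1 slide. The comparison asked which cell-cycle transcripts differed between OASIS and Venus cells. Within a group the labels use the numbers 1 and 2 but name no separate cultures, so the p-values below measure the spread between these samples, which may be technical.

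Between 33938 and 34418 of the 59305 spots that are not controls were well above background on an array, and 0 were saturated. Creb3l1 had 1 probe, and its normalised intensity was 0.71 and 0.72 in Venus and 0.61 and 0.49 in OASIS samples (log2 fold change -0.17, adjusted p = 0.298 by limma). This probe showed no rise with the OASIS vector. Where it lies relative to the N-terminal fragment in the vector was not determined here, so that it checks no label. Each direction below is that of the arrays labelled OASIS against those labelled Venus. The study probed OASIS protein by immunoblot 48 h after transfection, which these arrays do not measure. Of 13 podocyte markers 9 could be tested. Probes for Nphs1, Tcf21 and Ptpro were among those that did not meet the filter on background, so that Nphs1, the gene of the slit diaphragm protein nephrin, was not measured above background in both samples of either group. By their brightest probe Wt1 (log2 fold change 4.62) and Cd2ap (1.09) were higher and past the threshold of the comparison on the OASIS arrays. However, a dimmer probe of Wt1 gave -0.16 and others of Cd2ap gave -0.37 and 0.31. By the brightest probe 0 podocyte markers were past the threshold and lower. A dimmer probe of Kirrel was (-1.11, adjusted p = 0.00705 by limma), while its brightest gave -0.26. Of markers of other kidney and blood cells, 1 of 5 endothelial, 3 of 4 mesangial, 3 of 6 tubular and 2 of 4 leukocyte genes could be tested, with Ren1 lower (-2.90) and Lrp2 higher (1.62) on the OASIS arrays by their brightest probes. Of the other Lrp2 probes one gave 1.68 and 3 gave -0.16 to 0.012. The part of these genes in the cell-cycle results was not tested. In RNA from whole cultures, a transcript in fewer cells and less of it per cell cannot be told apart.

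D-type cyclins with Cdk4 or Cdk6, and then E-type cyclins with Cdk2, phosphorylate the retinoblastoma protein in G1 and release E2F factors, which switch on the genes for DNA replication. The INK4 and CIP/KIP proteins hold these kinases back. Mitotic genes, driven by Foxm1 and related factors, come on later, and their transcripts are abundant only in cells that cycle. Podocytes in the kidney are terminally differentiated cells that rarely divide and hold high levels of CDK inhibitors.

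Values are log2 intensities relative to the 75th percentile of the array, by the brightest tested probe of each gene, and a difference is given as OASIS minus Venus. Values of different probes cannot be set against each other as levels. A gene was said to rise or fall when its adjusted p was under 0.1 by limma (Benjamini-Hochberg, all tested probes), and to be past the threshold when it had also changed by more than 2-fold. With 2 arrays against 2, an exact permutation test of a single gene cannot give a two-sided p below 0.333. The calls by limma rest on a modelled spread, which is partly shared across probes.

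The 47 cell-cycle genes did not move as a block. Of these, 9 rose (E2f2, Ccne2, Ccnd1, Ccnd2, Ccnd3, Cdkn1b, Cdkn2c, Cdt1 and Rrm2), 4 fell (E2f3, Cdkn2b, Mcm7 and Ccnb2) and 34 passed in neither direction. Among all genes tested, 18.6% rose and 18.1% fell, so that the share of cell-cycle genes that rose was close to the background and the share that fell was under it. Ccne2 met the filter on background through the OASIS arrays alone, so that a higher value there was bound to be measured. Of the 46 genes well above background on all 4 arrays, 8 rose, 4 fell and 3 were past the threshold, with a median of 0.24. Over all 47, past the threshold were 4 higher (E2f2, Cdkn2c, Ccne2 and Cdt1) and 0 lower, where the background was 6.21% higher and 1.85% lower. Both OASIS arrays lay above both Venus arrays for 13 of the 47 genes, where the background over all genes tested was 31.5%. They lay below both Venus arrays for 5 of the 47, where the background was 39.4%. The median log2 fold change of the 47 was 0.26, against -0.056 for all genes, and the values ran from -0.70 to 2.65.

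**Figure D1:**
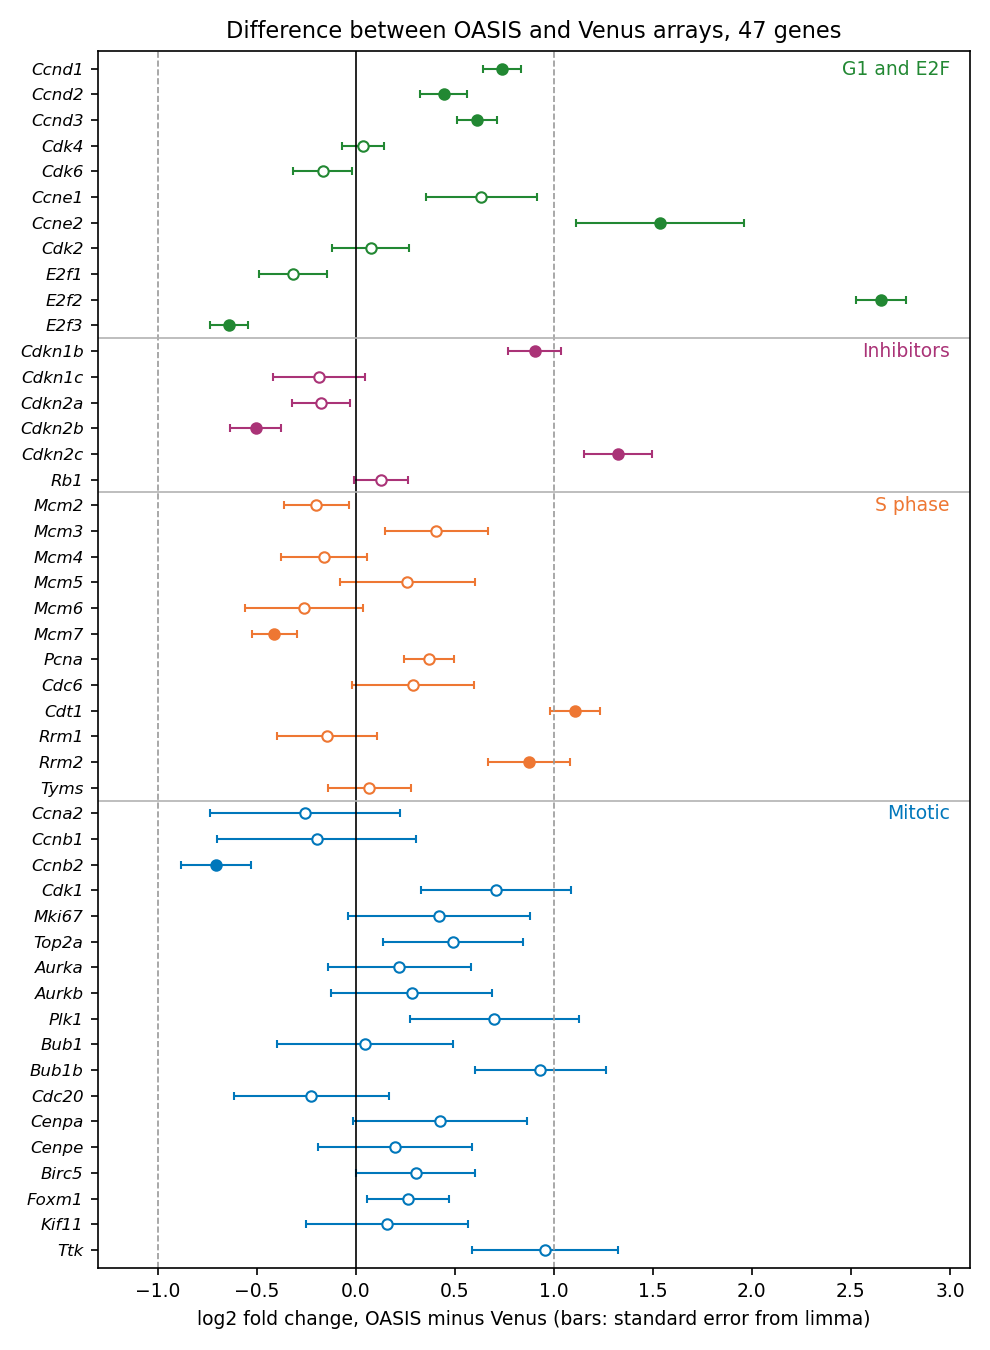
Log2 fold change of each of the 47 cell-cycle genes, OASIS minus Venus (x axis), by class, with the standard error from limma as the bar; n = 2 arrays a group. Filled points have an adjusted p under 0.1 and dashed lines mark a 2-fold change. E2f2 stands farthest out at 2.65, and the bars are widest for Ccne2 and for mitotic genes.

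The G1 class held the largest differences. Of its 11 genes 5 rose (45.5%) and 1 fell (9.09%), against 18.6% and 18.1% of all genes, with a median of 0.44. The 5 include Ccne2, which met the filter through the OASIS arrays alone. With Ccne2 dropped the median was lower, as given below. E2f2, an E2F factor of the activating kind, read -2.43 and -2.24 in Venus and 0.23 and 0.40 in OASIS samples. The groups were far apart relative to the arrays within a group. E2f2 rose 6.28-fold (log2 fold change 2.65, SE 0.13, adjusted p = 0.00248 by limma), and its second probe gave the same 2.65 (adjusted p = 0.0019). The other activating factors did not follow it. E2f3 read -0.21 and -0.20 against -0.86 and -0.83, and fell by 0.64 (SE 0.097, adjusted p = 0.0171 by limma). For E2f1 the log2 fold change was -0.32 and did not pass the test (adjusted p = 0.234 by limma). Both OASIS arrays of E2f1 lay under both Venus arrays, as in 39.4% of all genes.

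All 3 D-type cyclins rose, each by less than 2-fold. Ccnd1 read 4.49 and 4.50 in Venus and 5.23 and 5.23 in OASIS samples, a log2 fold change of 0.74 (SE 0.097, adjusted p = 0.0128 by limma). Ccnd3 read 4.06 and 4.15 against 4.72 and 4.71, a log2 fold change of 0.61 (SE 0.10, adjusted p = 0.0205 by limma). Ccnd2 read 7.06 and 6.94 against 7.53 and 7.37, a log2 fold change of 0.44 (SE 0.12, adjusted p = 0.0573 by limma). In all 3 both OASIS arrays lay above both Venus arrays, as in 31.5% of all genes. A call nearly requires this, so that it adds no support. However, Ccnd2 lost its call without a filter on dim probes (adjusted p = 0.120 by limma), by the methods' t-test and at a limit of 0.05. The calls of the D-type cyclins also depended on which array was left out, as given below. The other 2 probes of Ccnd2 gave 0.69 and 0.49 and were called too, while of the other Ccnd3 probes one gave 0.62 and the dimmest 0.21, which did not pass. Their kinase partners showed little difference, Cdk4 0.038 and Cdk6 -0.17, and neither passed.

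The E-type cyclins were less certain. Ccne2 was well above background on both OASIS arrays, at -4.18 and -5.43, and on neither Venus array, at -6.38 and -6.30. The group means were -4.81 and -6.34, a fitted fold of 2.90 (adjusted p = 0.0627 by limma). With each Venus array set to its lowest value well above background, where that was higher, the bound on the fold was 2.49, OASIS over Venus. The OASIS arrays differed from each other by 1.25, a spread that this bound leaves out. As the OASIS arrays alone let Ccne2 into the test, its p is not evidence of a difference. The fitted log2 fold change was 0.91, under 2-fold, without OASIS replicate 1 and 2.16 without OASIS replicate 2. Its lowest value over 15 alternatives was 0.39. Ccne1 read 0.41 and 0.99 against 1.06 and 1.61. The groups did not overlap, but the gap between them was smaller than the difference within each, and the log2 fold change of 0.63 did not pass (adjusted p = 0.163 by limma). Cdk2, the kinase bound by both, gave 0.076 and did not pass.

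**Figure D2:**
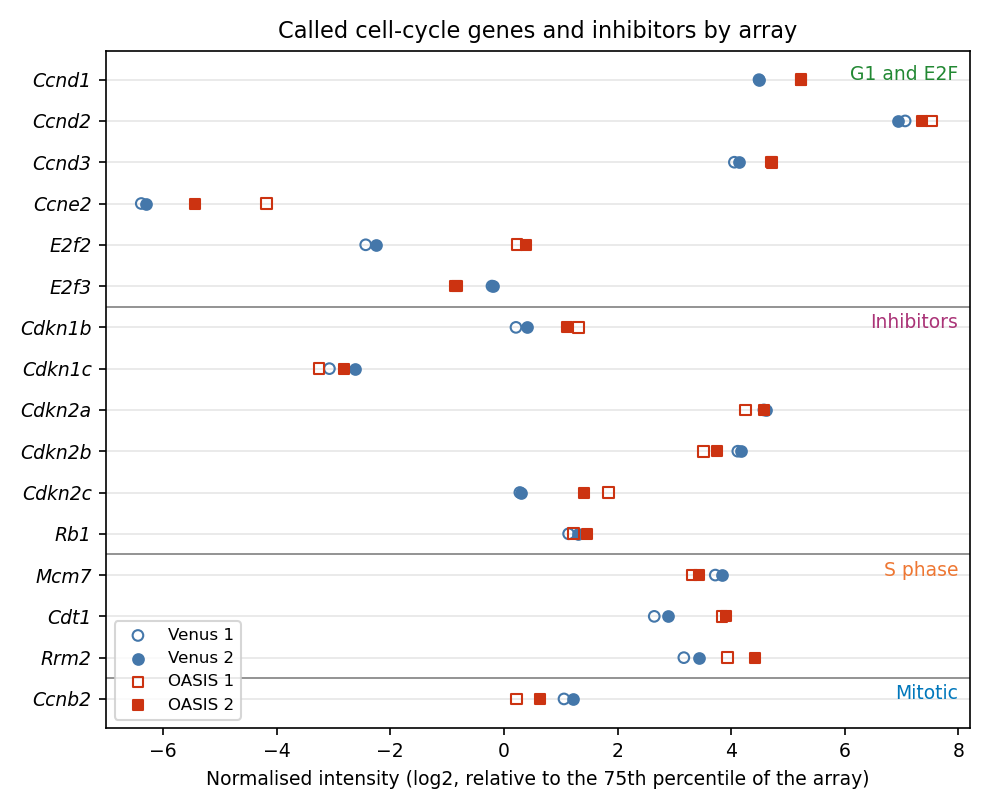
Normalised intensity (log2, relative to the 75th percentile of the array; x axis) of the genes that rose or fell and of all 6 inhibitors on each array; circles are Venus and squares OASIS, open for replicate 1 and filled for replicate 2. For E2f2 the OASIS squares at 0.23 and 0.40 lie well to the right of the Venus circles at -2.43 and -2.24, while for Cdkn1c and Rb1 the symbols of the groups mix.

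Of the 6 inhibitors 2 rose (33.3%) and 1 fell (16.7%), against 18.6% and 18.1% of all genes, with a median of -0.025. Cdkn2c, which encodes the INK4 inhibitor p18, read 0.28 and 0.31 in Venus and 1.84 and 1.40 in OASIS samples. It rose 2.51-fold (log2 fold change 1.33, SE 0.17, adjusted p = 0.0127 by limma), and a second probe gave 1.39. Cdkn1b, which encodes the CIP/KIP inhibitor p27, read 0.21 and 0.41 against 1.32 and 1.11 and rose by a log2 fold change of 0.90 (SE 0.13, adjusted p = 0.0165 by limma), or 1.87-fold. A dimmer Cdkn1b probe was well above background in OASIS samples only. The group means were -4.96 and -6.30, a fitted fold of 2.54 (adjusted p = 0.0634 by limma). With the Venus arrays raised in the same way as for Ccne2, the bound on the fold was 2.04, OASIS over Venus. This probe too entered the test through the OASIS arrays alone and adds no support to the rise. In contrast, Cdkn2b, which encodes the INK4 inhibitor p15, read 4.12 and 4.17 against 3.52 and 3.76. It fell by 0.51 (SE 0.13, adjusted p = 0.0510 by limma), and its other probe gave -0.45.

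The remaining 3 inhibitors did not pass by their brightest probe. Cdkn2a, the locus of p16 and p19ARF, read 4.58 and 4.61 against 4.26 and 4.58 (log2 fold change -0.18, adjusted p = 0.419 by limma). Cdkn1c, which encodes p57 and marks mature podocytes, read -3.07 and -2.62 against -3.26 and -2.81 (log2 fold change -0.18, adjusted p = 0.595 by limma). In both, an OASIS array lay inside the range of the Venus arrays. Rb1, the retinoblastoma gene, read 1.14 and 1.30 against 1.22 and 1.47 by its brighter probe (log2 fold change 0.13, adjusted p = 0.541 by limma). Its dimmer probe read -0.25 and -0.36 against -1.17 and -0.97, a log2 fold change of -0.77 (adjusted p = 0.0190 by limma). The probes of Rb1 thus differ in sign, and no direction is given for the gene.

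In the S phase class 2 of 12 genes rose (16.7%) and 1 fell (8.33%), against 18.6% and 18.1% of all genes. The class median was 0.17. Cdt1, which loads the replicative helicase at origins, read 2.65 and 2.89 in Venus and 3.84 and 3.91 in OASIS samples. It rose 2.15-fold (log2 fold change 1.11, SE 0.13, adjusted p = 0.0101 by limma). Cdc6, its partner in loading, gave 0.29 and did not pass. Rrm2, the small subunit of ribonucleotide reductase, read 3.17 and 3.44 against 3.93 and 4.42 and rose by a log2 fold change of 0.87 (SE 0.21, adjusted p = 0.0454 by limma). Rrm1, the large subunit, gave -0.15 and did not pass.

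Of the 6 subunits of the MCM helicase, which act together as a ring, 1 passed the test. Mcm7 read 3.72 and 3.84 against 3.31 and 3.43 and fell by 0.41 (SE 0.11, adjusted p = 0.0622 by limma), and its dimmer probe gave -0.57. The other 5 ran from -0.26 for Mcm6 to 0.41 for Mcm3 and did not pass, and the dimmer probe of Mcm6 gave -0.41, close to Mcm7. Whether the subunits differ from each other was not tested. Pcna, the sliding clamp of DNA polymerase, read 3.54 and 3.72 against 3.91 and 4.09, a log2 fold change of 0.37 just outside the limit (adjusted p = 0.101 by limma), and Tyms, thymidylate synthase, gave 0.069.

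Of the 18 mitotic genes 0 rose and 1 fell (5.56%) by limma, against 18.6% and 18.1% of all genes. At an unadjusted p under 0.05 the only mitotic gene higher was Bub1b. Bub1b and Ttk were called higher with normexp correction or an intensity trend, and Bub1b with a filter on all 4 arrays. With the replicate number as a block, 7 mitotic genes were called higher, as given below. The methods' t-test with Benjamini-Hochberg adjustment called 0 in either direction. Ccnb2, a B-type cyclin, read 1.06 and 1.21 in Venus and 0.22 and 0.64 in OASIS samples, and fell by 0.70 (SE 0.18, adjusted p = 0.0507 by limma). The class median was 0.27, and 14 of the 18 log2 fold changes were above 0. The largest were those of the checkpoint kinases Ttk, 0.96 (adjusted p = 0.126 by limma), and Bub1b, 0.93 (adjusted p = 0.107 by limma). For these 2 both OASIS arrays lay above both Venus arrays, as in 31.5% of all genes. Cdk1, the mitotic kinase, gave 0.71 by its brighter probe and 0.0048 by its dimmer one. Plk1, the polo kinase, gave 0.70 and Top2a, DNA topoisomerase II, gave 0.49 by its brightest probe. The other tested probes of Top2a gave 0.49 and 0.50. None of these passed the test. Ccna2 and Ccnb1, partners of Cdk1, gave -0.26 and -0.20 by their brightest probes. The other Ccna2 probe gave 0.046, and the other Ccnb1 probes gave -0.55, -0.63 and -0.22. None of these probes passed.

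By the class medians given below, the spread between arrays of a group was larger for mitotic than for G1 genes. This did not hold for each gene. The G1 gene Ccne1 differed by 0.58 between Venus and 0.54 between OASIS arrays. The mitotic genes Ccnb2 (0.15 and 0.42) and Foxm1 (0.31 and 0.46) differed by less. Mki67, the proliferation marker, read -0.60 and 0.29 on Venus arrays 1 and 2, and -0.25 and 0.78 on OASIS arrays 1 and 2. The arrays of a group were thus farther apart than the group means, which differed by 0.42. Ccnb1 read -1.13 and -0.48 in Venus and -1.68 and -0.33 in OASIS samples, so that the OASIS arrays held both the lowest and the highest value. In all 18 mitotic genes and all 12 S phase genes, the array numbered 2 was above the array numbered 1 in both groups. The same held for 6 of 11 G1 genes, 4 of 6 inhibitors and 40 of the 47 genes in all, against 28.2% of all genes. This count, by the brightest probe of each gene, was chosen once the values were known. The dimmer probe of Cdk1 was lower on array 2 in both groups, at -2.86 and -3.02 in Venus and -2.92 and -2.95 in OASIS samples. The dimmer probe of Mcm7 was lower on array 2 in OASIS samples, at -2.05 and -2.15, but not in Venus samples.

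The median difference between OASIS replicate 2 and OASIS replicate 1 was 0.95 for the mitotic genes, from 0.42 to 1.35, and 0.54 for the S phase genes. Between Venus replicate 2 and Venus replicate 1 it was 0.66 for the mitotic genes, from 0.15 to 0.89, and 0.27 for the S phase genes. For the G1 genes it was 0.023 and 0.088, and for all genes -0.016 and -0.013. Without regard to sign, the median difference of all genes was 0.157 between the OASIS arrays and 0.0988 between the Venus arrays. Measured from each gene's own mean over the 4 arrays, the mitotic genes had medians of -0.41 and 0.19 in Venus and -0.32 and 0.58 in OASIS samples. Set against the mean of the Venus arrays, the mitotic median was -0.11 on OASIS replicate 1 and 0.68 on OASIS replicate 2, and the S phase median was -0.18 and 0.40. Against the Venus mean, the sign of these 2 medians thus differed between the OASIS arrays. Between samples of the same number, OASIS minus Venus, the mitotic median was 0.19 for number 1 and 0.40 for number 2, and the S phase median -0.024 and 0.33. Of the mitotic genes 11 were higher in OASIS samples at both numbers and 2 lower, and of the S phase genes 6 were higher and 5 lower. What separates the samples numbered 1 from those numbered 2 is not given in the labels, and its part in the mitotic and S phase values was not tested.

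**Figure D3:**
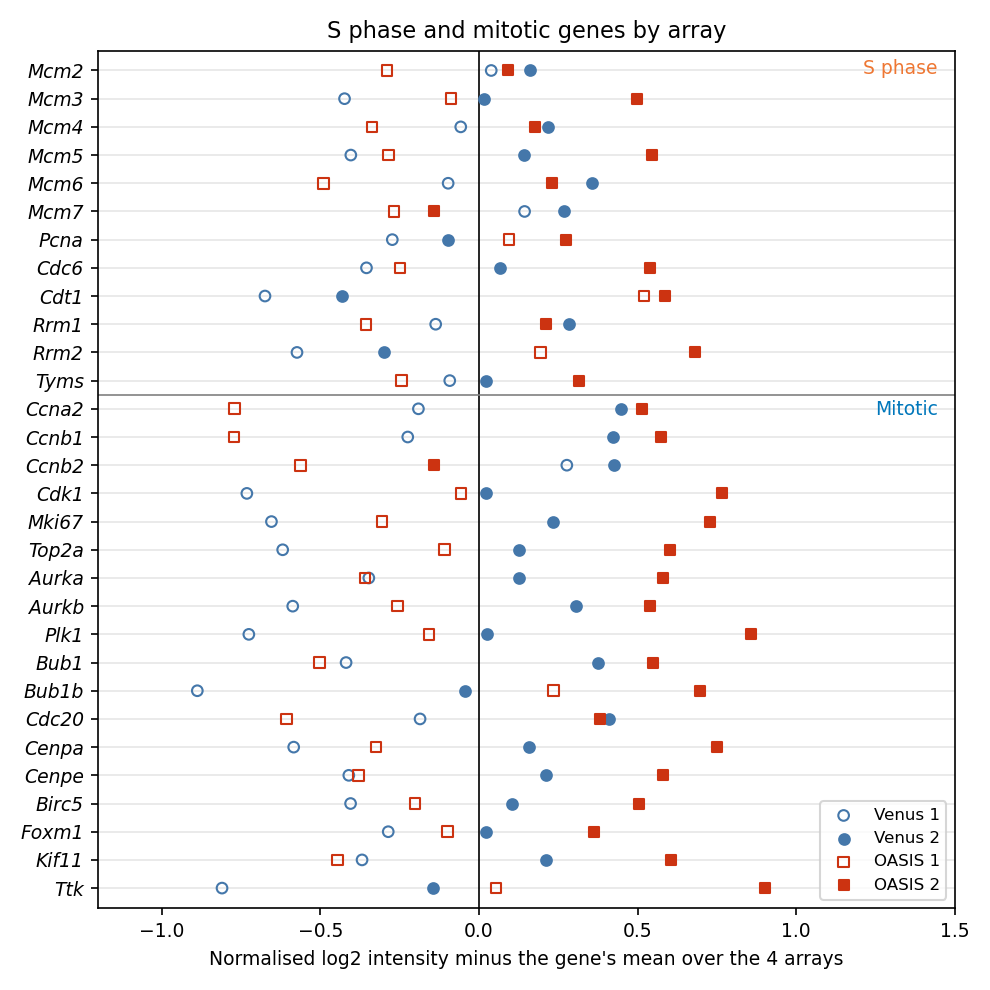
Normalised log2 intensity of the 12 S phase and 18 mitotic genes on each array, minus the gene's own mean over the 4 arrays (x axis); circles are Venus and squares OASIS, open for replicate 1 and filled for replicate 2. In each gene the filled symbol of a group lies to the right of its open symbol.

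**Figure D4:**
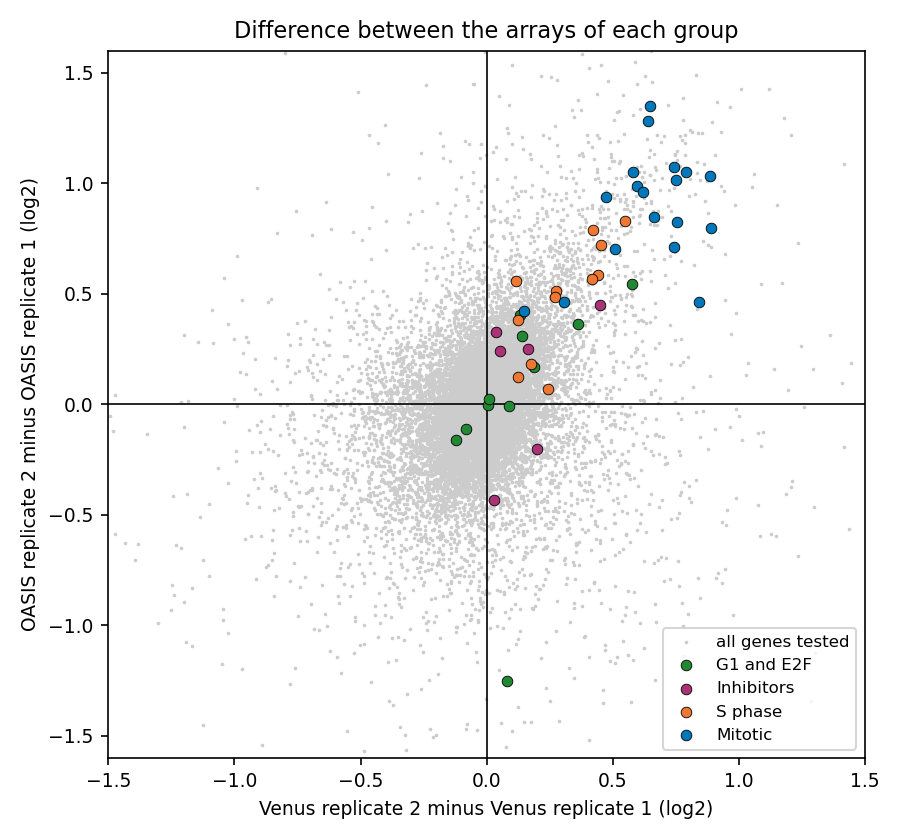
Difference between the arrays of a group (log2, replicate 2 minus replicate 1) in Venus samples (x axis) and OASIS samples (y axis), for all genes tested in grey and the 47 cell-cycle genes in colour by class; 86 genes lie outside the axes. The mitotic and S phase genes lie at the upper right, the mitotic genes with medians of 0.66 and 0.95.

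Of the 13 genes that rose or fell, Ccnb2 was the only one from the mitotic class. Leaving out 1 array at a time showed how far each call rested on it. E2f2, Cdkn2c and Cdt1 rose whichever array was left out, at 2.56 to 2.75, 1.11 to 1.54 and 0.99 to 1.23, and the lowest value of Cdt1, just under 2-fold, was that without Venus replicate 1. These were also the only 3 genes called without Venus replicate 1. Without Venus replicate 2 they were joined by Ccnd1, Cdkn1b and Bub1b, and in both cases 0 genes fell. Without OASIS replicate 1 the calls of Ccnd2, Cdkn2b and Mcm7 were lost and Ttk (1.38) was called, and without OASIS replicate 2 all 13 calls stood and E2f1 (-0.52) was called lower. Rrm2 was 1.12 without OASIS replicate 1 and 0.63 without OASIS replicate 2, and Ccnb2 was -0.49 and -0.91.

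Of the 47 genes, 24 had more than 1 tested probe. In 18 of these all tested probes had 1 sign, and in 22 all tested probes had the same call. The exceptions in call were Ccnd3 and Rb1, described above. The 23 genes with a single tested probe include Ccnd1, Ccne2, E2f3, Cdt1, Rrm2 and Ccnb2, for which no second probe bears on the value. Of the 87 probes 4 did not meet the filter on background, 1 each for Top2a, Bub1, Foxm1 and Ttk. All genes but Ccne2 were well above background on all 4 arrays.

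Among 126 further cell-cycle genes, listed by textbook role, 15 rose and 7 fell by limma, with a median of 0.013. These shares of 11.9% and 5.56% were under the 18.6% and 18.1% of all genes. Past the threshold were 5 higher (3.97%) and 0 lower, against 6.21% and 1.85% of all genes, and the 5 are given because they passed, not because the list stands apart. Cdc25c, a phosphatase that activates Cdk1, read -3.16 and -2.88 in Venus and -1.53 and -0.88 in OASIS samples and rose 3.53-fold (log2 fold change 1.82, SE 0.25, adjusted p = 0.0143 by limma). Fen1, the flap endonuclease of lagging strand synthesis, read 2.76 and 2.93 against 4.17 and 4.13 (log2 fold change 1.30, adjusted p = 0.00645 by limma). Rpa2, a subunit of the single-strand binding complex, gave 1.10 (adjusted p = 0.0319 by limma). Cdk7, the kinase that activates other cyclin-dependent kinases, gave 1.09 (adjusted p = 0.00837 by limma), and Cdc25a, the phosphatase that activates Cdk2, gave 1.08 (adjusted p = 0.00736 by limma). In all 5 both OASIS arrays lay above both Venus arrays, as in 31.5% of all genes. The threshold nearly requires this of genes that pass it, so that it adds no support.

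By class, 3 of 11 further G1 genes rose (27.3%) and 2 fell (18.2%), against 18.6% and 18.1% of all genes. Of 13 inhibitors and pocket protein partners 1 rose (7.69%) and 0 fell. Of 45 S phase genes 7 rose (15.6%) and 4 fell (8.89%), and of 57 mitotic genes 4 rose (7.02%) and 1 fell (1.75%). Among those that rose by less than 2-fold were Cdc45, a helicase cofactor (0.88), Skp2, which targets p27 for degradation (0.75), and Cdc25b (0.91). Tfdp2, a partner of E2F factors, fell by 0.62 and Tpx2, a spindle protein, fell by 0.68. Cdkn1a, which encodes p21, gave -0.16 and did not pass (adjusted p = 0.287 by limma). The array numbered 2 was above the array numbered 1 in both groups for 101 of the 126.

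Over the 575 tested genes that carry the Gene Ontology term cell cycle in the deposited annotation, a set chosen once values were known, 122 rose (21.2%) and 85 fell (14.8%), against 18.6% and 18.1% of all genes, with a median of -0.022. Of these, 31 (5.39%) were past the threshold and higher and 1 (0.174%) lower, against 6.21% and 1.85% of all genes. The set holds 40 of the 47 genes described here, and without them 114 of 535 rose and 81 fell.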

How the data were processed

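RNA of 4 samples was hybridised to 1-colour Agilent mouse arrays. The authors deposited background-corrected intensity values per spot from Agilent Feature Extraction (version 12.1.0.3), median intensities of spot and background, and marks of 0 or 1 for detection, saturation and outliers. A further deposited file gives the intensities times 1 factor per array (0.663 to 0.698), a detection score, gene symbols and Gene Ontology terms.

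Corrected intensities were put on the log2 scale and centred per array on the 75th percentile, without control and outlier spots, and the values of spots with the same probe were averaged. Tests were limited to the 31598 of 56605 probes with at least 0.5 of their spots well above background on each array of OASIS, of Venus or of both. The brightest tested probe stood for its gene. In R 4.3.3, limma 3.58.1 (with data.table, version 1.17.8) compared 2 OASIS with 2 Venus arrays with lmFit and eBayes, using the Benjamini-Hochberg adjustment over these probes. The threshold, as in the methods of the study, was an adjusted p under 0.1 with a fold above 2 or below 0.5. For a probe not well above background in a group, a fold is given as a bound, namely the brighter group's mean (log2) less that of the dimmer one, where each dim array takes its own value or, if higher, the lowest among its probes well above background. The fit was tested on simulated data. The number of arrays limits the precision.

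The 47 genes, their classes and the further lists were chosen with earlier results of these data known. Values per array are given for genes past the threshold by any tested probe, for up to 5 called genes a class with the largest change, for genes whose probes differ in sign with a call, for all inhibitors, and for further genes past the threshold, up to 10. Other genes named, among them Ccnd2, Ccne1, Pcna, Mki67 and Ccnb1 with their arrays, were chosen after their values were seen. Of 128 further genes, Ccnd1bp1 and Cdk3 were not matched by symbol. Alternatives were scaling to the median, quantile normalization, normexp correction of the median spot signal (offset 50), the authors' scaled values, no filter, a filter on all 4 arrays, outlier spots kept, averaging the probes of a gene, an intensity trend, the methods' t-test, a limit of 0.05 on the adjusted p, a block for the replicate number, and leaving out each array. No genome of the array's build and no sequence table were used here, so that neither coordinates nor promoter sequences are given. Values of 1 marker gene are not reported here.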

Additional observations from a re-analysis of the deposited data

How the results depend on the processing

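E2f2 rose under all 16 alternatives, at 2.27 to 2.75. Quantile normalization, scaling to the median, the authors' scaled values, keeping outlier spots and averaging the probes of a gene kept the same 9 genes higher and 4 lower. Without a filter on dim probes 6 of the 47 genes rose, without Ccnd2, Ccne2 and Rrm2, and 1 fell (E2f3), and of the further cell-cycle genes 8 rose and 0 fell. By the methods' t-test 1 gene was past the threshold, 3 rose (Ccnd1, Ccnd3 and E2f2) and 1 fell (E2f3), and of the further genes 2 rose and 0 fell. At an adjusted p under 0.05 by limma 1 gene fell, and 2 of the further genes. With a filter on all 4 arrays, which drops Ccne2, 10 rose, with Pcna and Bub1b added, and the G1 median was 0.26. With normexp correction, and likewise with an intensity trend, 13 rose, with Ccne1, Pcna, Bub1b and Ttk added.

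With the replicate number as a block 19 of the 47 genes rose, among them 7 mitotic genes (Cdk1, Mki67, Top2a, Plk1, Bub1b, Cenpa and Ttk) and Ccne1, Mcm3 and Pcna, while 4 fell and 4 were past the threshold. Of the further genes 25 rose and 14 fell. The share of all genes called was not counted under this or the other alternatives, so these counts have no background beside them. The samples share only a number, in 2 pairs, and the differences between arrays 2 and 1 in OASIS and Venus samples had r = 0.298 across genes, which are not independent.

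Leaving out 1 array gave 2 to 5 genes past the threshold, 3 to 9 that rose and 0 to 5 that fell. Of the further genes 6 to 17 rose and 0 to 15 fell. The medians ran from 0.35 to 0.38 for G1, from -0.18 to 0.40 for S phase and from -0.11 to 0.68 for mitotic genes. Where an arm kept 1 array, it was assumed to vary like the other group. Of 188 values of single genes 34 changed sign, in genes that had not passed. They ran from -0.017 to 0.093 for Cdk4, -0.11 to 0.26 for Cdk2, -0.41 to 0.041 for Cdkn1c, -0.42 to 0.097 for Mcm4, -0.15 to 0.68 for Mcm5, -0.62 to 0.10 for Mcm6, -0.11 to 0.68 for Cdc6, -0.43 to 0.14 for Rrm1 and -0.21 to 0.35 for Tyms. Among mitotic genes they ran from -0.90 to 0.38 for Ccna2, -0.87 to 0.48 for Ccnb1, -0.095 to 0.94 for Mki67, -0.25 to 0.69 for Aurka, -0.16 to 0.73 for Aurkb, -0.48 to 0.57 for Bub1, -0.72 to 0.27 for Cdc20, -0.11 to 0.96 for Cenpa, -0.28 to 0.68 for Cenpe, -0.050 to 0.65 for Birc5 and -0.37 to 0.68 for Kif11. Under the alternatives with all 4 arrays, 520 of 563 values kept sign and call and 3 changed sign, all where probes of a gene were averaged (Cdk4 -0.022, Rb1 -0.32 and Tyms -0.080). Except where the setting's construction shows it, the cause was not tested. The search for promoter motifs was not run.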

Other observations

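The difference between samples numbered 1 and 2 was also counted over all genes, after values had been seen. In both groups, 208 of 16313 genes were higher on array 2 than on array 1 by more than 0.5 (log2). The Gene Ontology term cell cycle was carried by 44 of the 208 (21.2%), against 3.52% of all these genes, and 16 were among the 47 cell-cycle genes. In the opposite direction 110 genes differed by more than 0.5 in both groups, and 0 of them carried the term.

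Not all of the 208 belong to the cell cycle. Ska1, a protein of the kinetochore, was higher on array 2 by 1.18 in Venus and 1.30 in OASIS samples, and E2f7, an E2F repressor, by 0.91 and 1.37. Mgp, which inhibits calcification of matrix, was higher by 1.21 and 1.22. Oas2, an interferon-induced enzyme, was higher by 1.15 and 2.99, and Cd74, the invariant chain of MHC class II, by 0.97 and 1.34. These genes were picked from the 20 with the largest differences, after their values had been seen.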
